A study of Rattus norvegicus with 6 samples.

Results

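The chemokine ligands and receptors of rat alveolar tissue are described here across 6 RNA-sequencing libraries. Members were all rows of the deposited count table whose gene symbol has the form of a CC, CXC or XC chemokine, of one of their receptors, or of an atypical chemokine receptor, without Ccl9, Ccl6, Ccr1 and Cxcl12. This gave 52 of the 37203 genes in the table, 30 ligands and 22 receptors. The tissue came from the tooth-bearing part of the jaw in a rat model of orthodontic tooth movement, in which corticision, a surgical cut into the cortical bone, was compared with its absence. By title, libraries 5, 6 and 9 are case and libraries 5, 6 and 10 are control, 3 in each group. The source field gives the case libraries as tooth movement without corticision and the control libraries as tooth movement with it, the opposite of the usual sense of these titles. Groups are therefore named by title, every difference is case minus control, and which condition each title stands for cannot be told from the labels with certainty. Both groups had tooth movement, and none of the 6 libraries is labelled as tissue without it. The sources used here give no strain, age, sex or day of sampling. They do not say whether each library came from a separate animal either, so the p-values below rest on a spread between libraries that may be technical.

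Chemokines are small secreted proteins that guide leukocytes along a gradient. They act through receptors that span the membrane and couple to inhibitory G proteins, and atypical receptors bind the same ligands but clear or store them without that signal. CXC chemokines of the Cxcl1 kind draw neutrophils, the Ccl2 and Ccl3 groups draw monocytes, and others draw lymphocytes or hold them in lymphoid tissue. In bone, monocytes are also the precursors from which osteoclasts form.

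Library totals ranged from 10886303 to 14433740 counts, and members together took between 7860 counts (control 10) and 14087 counts (control 6). Genes of a bone list, such as Col1a1 and Bglap, were detected in full, with a summed level of 58960 to 106600 CPM (the count scaled for library depth). Markers of other tissue set single libraries apart: oral epithelium genes summed to 3868 CPM in control 5 and to 47.0 to 102.1 CPM in the other 5 libraries. Genes of tooth-forming cells summed to 459.6 CPM in case 5, 89.8 CPM in control 5 and at most 7.79 CPM in the others. Skeletal muscle genes summed to 127.4, 359.6 and 1288 CPM in case 5, 6 and 9, against 9.63, 1144 and 1084 CPM in control 5, 6 and 10. Of other lists, all 6 endothelium, all 6 erythroid and all 4 tested immediate early genes had negative fold changes. All 10 tested oral epithelium genes were negative too, where 53.7% of all tested genes were. All 6 mast cell genes had positive fold changes. Erythroid genes summed to 14150, 1264 and 4832 CPM in case 5, 6 and 9, against 14760, 15740 and 8979 CPM in control 5, 6 and 10. Atf3, an immediate early gene, lay apart with case lower (log2 fold change -1.63, SE 0.42), as did Pecam1 and Emcn of endothelium. Groups lay apart in that direction in 1 of 4 immediate early, 2 of 6 endothelium and 2 of 10 oral epithelium genes. Over all tested genes the share was 4.42%. Tpsab1 (2.33, SE 0.50) and Cpa3 (1.38, SE 0.38), 2 of the 6 mast cell genes, lay apart with case higher, against 4.05% of all tested genes. The part of these in the differences below was not tested. In bulk tissue, fewer cells of a type and less RNA per cell cannot be told apart.

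Most ligand values lay lower in case and most receptor values higher, but no single member passed the test over all genes. Of 52 members, 36 had enough counts to be tested, 20 ligands and 16 receptors. Among the ligands 15 had a negative log2 fold change and 5 a positive one, with a median of -1.22, which was -0.39 without control 6. Among the receptors 6 were negative and 10 positive, with a median of 0.42. Over all 16066 tested genes 53.7% were negative, and the median was -0.024. The quasi-likelihood test of edgeR called 0 members at a Benjamini-Hochberg adjusted p under 0.05, where it called 0% of all genes, and each member had an adjusted p of 0.999. DESeq2 called 1 member, Cxcl3, among 21 of all 16066 genes, and limma-voom called 0 of either.

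At an unadjusted p under 0.05 stood 9 of the 36 members, against 4.15% of all tested genes. Of these, 6 were lower in case, against 2.27% of all genes: Cxcl3, Cxcl6, Ccl2, Ccl11, Cxcl13 and Ccl21. The other 3 were higher in case, against 1.88% of all genes: Ccl5, Cxcr4 and Ccr6. All members were measured in the same 6 libraries, so these counts do not stand for separate observations. Without case 6 the count was 4 of 37 tested members, against 2.23% of all tested genes in that setting. Without control 10 it was 3 of 40, against 2.41%, and without both libraries numbered 5 it was 16 of 39, against 14.1%. In 5 of the 36 the groups did not overlap in either direction, against 8.47% of all tested genes. The filter let 22 members pass with every library at or above its minimum of 0.822 CPM. It let 4 pass with all control but not all case libraries at that minimum, and 4 with all case but not all control libraries.

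**Figure D1:**
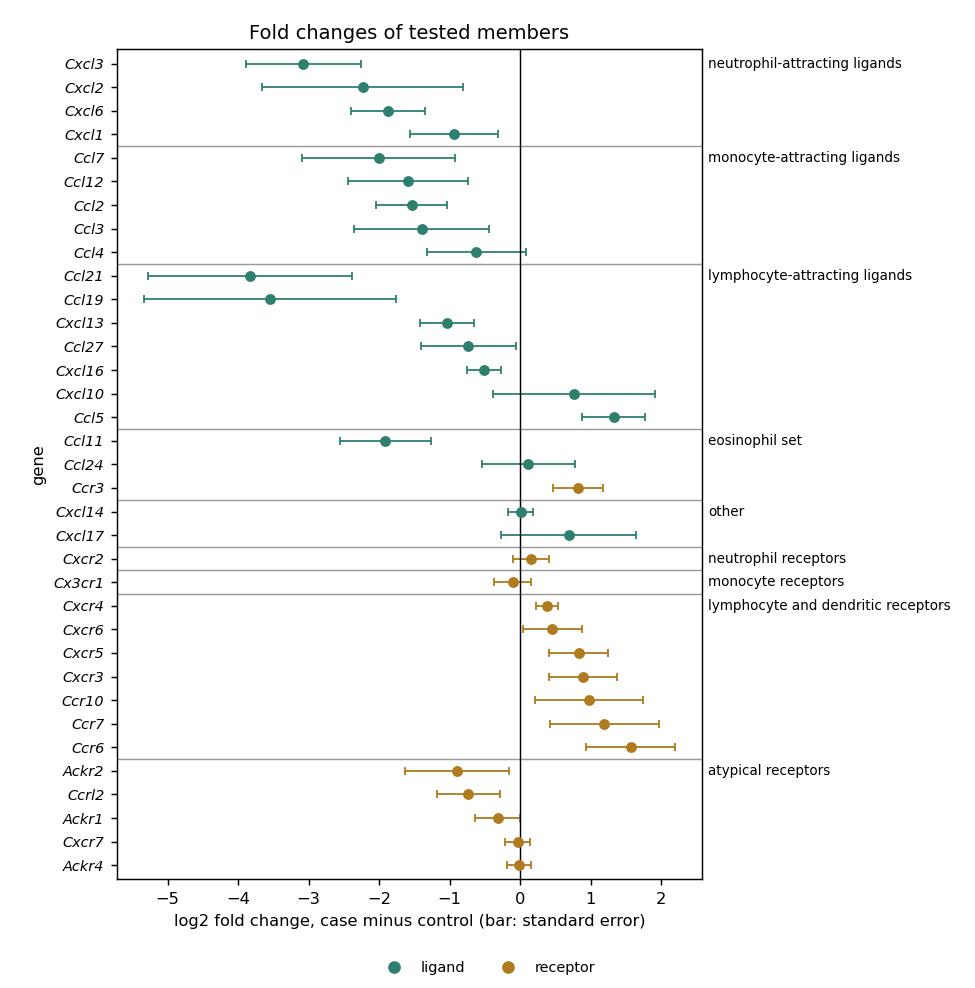
Log2 fold change (case minus control, horizontal axis) of 35 of the 36 tested members, grouped by the cells they attract or mark; points are edgeR estimates and bars standard errors. The 4 neutrophil-attracting and 5 monocyte-attracting ligands lie left of 0, and the 7 lymphocyte and dendritic receptors lie right of it.

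The neutrophil-attracting ligands lay lower in case in each of the 4 members found. Cxcl1, Cxcl2, Cxcl3 and Cxcl6 are CXC chemokines that act on neutrophils through Cxcr2, and they are neighbours in 1 stretch of the rat genome. Cxcl3 was at 0.0799, 2.46 and 1.35 CPM in case 5, 6 and 9, against 8.40, 16.7 and 8.32 CPM in control 5, 6 and 10. The case mean was 1.29 ± 1.19 CPM and the control mean 11.1 ± 4.81 CPM (SD, n = 3 each). Every control library lay above every case library, with a log2 fold change of -3.08 (SE 0.81). The case values rest on 1, 37 and 16 counts and the control values on 96, 212 and 91. Cxcl6 was at 1.60, 3.39 and 2.27 CPM in case 5, 6 and 9, against 12.7, 3.54 and 10.6 CPM in control 5, 6 and 10. Its groups also lay apart, with a log2 fold change of -1.87 (SE 0.52), although control 6 stood just above case 6. Groups lay apart with case lower in 3 of the 36 tested members and in 4.42% of all tested genes.

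The other 2 neutrophil-attracting ligands overlapped between the groups. Cxcl1 was at 1.60, 1.06 and 4.29 CPM in case 5, 6 and 9, against 4.81, 2.05 and 6.40 CPM in control 5, 6 and 10, so that case 9 lay above control 6 (log2 fold change -0.94, SE 0.63). Cxcl2 was at 0.320, 0.931 and 8.91 CPM in case 5, 6 and 9, against 0.700, 37.5 and 9.05 CPM in control 5, 6 and 10. It was low in both libraries numbered 5 and in case 6, and its log2 fold change of -2.23 (SE 1.42) was -0.51 without control 6. Thus the 4 neighbours did not follow the same libraries: Cxcl2 and Cxcl3 were highest in control 6, where Cxcl1 and Cxcl6 were lowest among the control libraries. The median of the 4 fold changes was -2.05, and all 4 were negative with each library left out in turn, the median then lying between -2.46 and -1.65.

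Upstream sequences are shown for neutrophil-attracting ligands and for Cxcl10, since these genes share a short motif next to their start. They are the 150 bases before the start of each gene in the RefSeq table of assembly GRCr8, in the direction of transcription. Capitals mark matches, on either strand, of a motif of GGG, any 3 bases and TTCC, a form of the sequence that NF-kappaB proteins can bind.
Cxcl1, chr14:17479322-17479471, minus strand: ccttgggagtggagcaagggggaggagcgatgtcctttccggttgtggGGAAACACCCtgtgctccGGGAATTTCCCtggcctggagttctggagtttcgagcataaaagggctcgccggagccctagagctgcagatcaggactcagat
Cxcl2, chr14:17467256-17467405, minus strand: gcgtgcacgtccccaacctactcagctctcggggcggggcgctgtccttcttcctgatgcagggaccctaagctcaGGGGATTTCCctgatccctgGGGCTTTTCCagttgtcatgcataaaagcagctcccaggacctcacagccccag
Cxcl6, chr14:17596418-17596567, minus strand: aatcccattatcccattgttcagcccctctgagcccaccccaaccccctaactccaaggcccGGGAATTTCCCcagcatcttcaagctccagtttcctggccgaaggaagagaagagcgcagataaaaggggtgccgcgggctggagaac
Cxcl10, chr14:15988916-15989065, plus strand: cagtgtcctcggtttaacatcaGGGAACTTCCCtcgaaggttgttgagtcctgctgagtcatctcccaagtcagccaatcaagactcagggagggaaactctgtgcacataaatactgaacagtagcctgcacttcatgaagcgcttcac
Within 250 bases of the start the motif stood in all 3 neutrophil-attracting ligands that the table holds, Cxcl1, Cxcl2 and Cxcl6. It stood in 8 of the 38 members with an entry, 7 of 24 ligands and 1 of 14 receptors, and in 4.53% of all 33469 promoters. The other ligands with a match were Ccl7, Ccl20, Cxcl10 and Cxcl11, and the receptor was Ccr3. In Cxcl1, Cxcl6 and Cxcl10 a plus-strand and a minus-strand match overlap, shifted by 1 base, so these runs of capitals count as 2 matches each. The exact string TATAAA, 1 form of the TATA box, was searched on the gene's own strand. It stood in 9 of the 38 members and in 8.06% of all promoters. None of the 3 neutrophil-attracting ligands held it, but their printed bases each hold ATAAAA near the start, a form not counted. The TATAAA of Cxcl10 lies 162 to 157 bases before the start, outside the printed stretch. A match is a run of letters and was not tested as a binding site.

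The receptor of these ligands and the markers of neutrophils did not share 1 direction with them. Cxcr2, which binds them, was at 67.3, 63.5 and 96.2 CPM in case 5, 6 and 9, against 56.5, 92.2 and 54.9 CPM in control 5, 6 and 10. The groups overlapped, with a log2 fold change of 0.16 (SE 0.26). Cxcr1, the other receptor of this kind, was listed at 0 in every library. Of the 11 neutrophil markers, such as S100a8, Mpo and Camp, 10 were tested, of which 4 had a negative and 6 a positive fold change. Their summed level was 9323 to 19920 CPM in case and 7153 to 20600 CPM in control. Cxcl3 and Cxcl6 were about as high in control 10, where oral epithelium genes summed to 47.0 CPM, as in control 5, and the part of epithelium in their difference was not tested. Without control 5 the log2 fold change was -3.24 for Cxcl3 and -1.53 for Cxcl6.

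**Figure D2:**
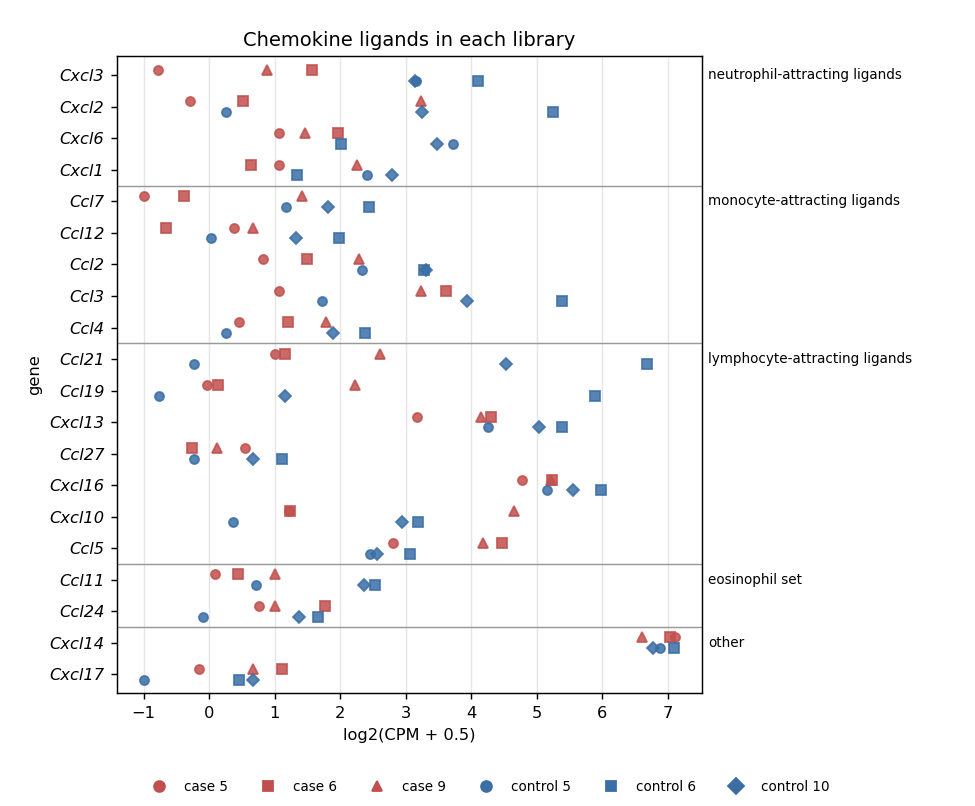
Level of each tested ligand in each library, as log2(CPM + 0.5) on the horizontal axis; each point is 1 library, with case libraries in red above control libraries in blue. For Cxcl3, Cxcl6 and Ccl2 every control point lies right of every case point.

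The monocyte-attracting ligands also lay lower in case in each of the 5 members found. Ccl2, Ccl7 and Ccl12 are ligands of the monocyte receptor Ccr2, which was not analysed here, and Ccl3 and Ccl4 are macrophage inflammatory proteins. Ccl2 was at 1.28, 2.33 and 4.37 CPM in case 5, 6 and 9, against 4.55, 9.21 and 9.41 CPM in control 5, 6 and 10. The case mean was 2.66 ± 1.57 CPM and the control mean 7.72 ± 2.75 CPM (SD, n = 3 each). The groups lay apart, narrowly between case 9 and control 5, with a log2 fold change of -1.54 (SE 0.50). Ccl7 was at 0, 0.266 and 2.19 CPM in case 5, 6 and 9, against 1.75, 4.96 and 3.02 CPM in control 5, 6 and 10. Case 9 was above control 5, so the groups overlapped, and the 0 counts of case 5 allow up to 3 counts, or 0.240 CPM, for counting error alone. Ccl12 was at 0.799, 0.133 and 1.09 CPM in case 5, 6 and 9, against 0.525, 3.46 and 2.01 CPM in control 5, 6 and 10 (log2 fold change -1.59, SE 0.85).

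Ccl3 and Ccl4 varied more within the groups than between them. Ccl3 was at 1.60, 11.8 and 8.91 CPM in case 5, 6 and 9, against 2.80, 41.2 and 14.9 CPM in control 5, 6 and 10. Both libraries numbered 5 were low, and the log2 fold change of -1.40 (SE 0.95) was -0.23 without control 6. Ccl4 was at 0.879, 1.80 and 2.94 CPM in case 5, 6 and 9, against 0.700, 4.72 and 3.20 CPM in control 5, 6 and 10 (log2 fold change -0.62, SE 0.71). The median of the 5 fold changes was -1.54, and -0.90 without control 6. Ccl2, Ccl7, Ccl12 and the eosinophil-attracting Ccl11 are neighbours in the genome, and all 4 had negative fold changes. In another stretch Ccl3 and Ccl4 were negative and their neighbour Ccl5 positive.

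A receptor of monocytes did not share the size of these differences. Cx3cr1, the receptor of the membrane-bound chemokine Cx3cl1, was at 19.3, 35.7 and 24.0 CPM in case 5, 6 and 9, against 27.0, 34.9 and 23.4 CPM in control 5, 6 and 10. These groups overlapped almost fully (log2 fold change -0.11, SE 0.27). All 12 macrophage and monocyte markers were tested, 10 with a positive fold change. Their sum was 6812 to 15350 CPM in case and 5428 to 10570 CPM in control. Most of that sum was Lyz2 alone, at 5409 to 13240 CPM in case and 4154 to 8615 CPM in control.

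Receptors of lymphocytes and dendritic cells all lay higher in case where they could be tested. Ccr6, Ccr7, Ccr10, Cxcr3, Cxcr4, Cxcr5 and Cxcr6 had positive fold changes, from 0.38 to 1.56, with a median of 0.89. Cxcr4, which holds blood-forming cells and lymphocytes in the marrow, was at 122, 128.5 and 124.7 CPM in case 5, 6 and 9, against 86.5, 114.4 and 86.6 CPM in control 5, 6 and 10. The case mean was 125.1 ± 3.28 CPM and the control mean 95.8 ± 16.1 CPM (SD, n = 3 each). The groups lay apart, with a log2 fold change of 0.38 (SE 0.16). With case higher, groups lay apart in 2 of the 36 tested members and in 4.05% of all tested genes.

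The other receptors of this set overlapped between the groups. Ccr6, which binds Ccl20 and is found on B cells and T helper cells, was at 2.64, 12.4 and 7.48 CPM in case 5, 6 and 9, against 1.23, 4.09 and 2.29 CPM in control 5, 6 and 10 (log2 fold change 1.56, SE 0.64). Case 6 and case 9 lay above every control library and case 5 between them. Ccr7, which leads naive T cells and mature dendritic cells to lymphoid tissue, was at 1.28, 11.6 and 4.46 CPM in case 5, 6 and 9, against 1.31, 4.09 and 2.19 CPM in control 5, 6 and 10. Cxcr5, the receptor of B cell follicles, was at 4.71, 11.1 and 8.66 CPM in case 5, 6 and 9, against 3.24, 6.61 and 3.93 CPM in control 5, 6 and 10. In each of these 3 genes case 6 was the highest library, and case 5 lay below control 6. Cxcr3, a receptor of activated T cells, was at 3.20, 9.31 and 6.81 CPM in case 5, 6 and 9, against 1.93, 4.57 and 3.93 CPM in control 5, 6 and 10. It too was highest in case 6, and its case 5 lay below control 6 and control 10. Ccr10 and Cxcr6 rested on 5 to 60 and 8 to 22 counts a library, with log2 fold changes of 0.98 (SE 0.77) and 0.45 (SE 0.42). In RefSeq the spans of Ccr6, Ccr7, Ccr10, Cxcr5 and Cxcr6 overlap those of other genes. The sources used here do not say whether strand was used in counting.

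Most lymphocyte markers also had positive fold changes, none past the adjusted threshold. Of 12 T and NK cell markers 10 were tested, all with a positive fold change and a median of 0.79. None stood at an unadjusted p under 0.05 or had groups apart. The list summed to 365.4 to 547.7 CPM in case and 321.9 to 432.5 CPM in control. Most of these sums was Cd4, at 192.7 to 270.3 CPM, and Nkg7, at 71.6 to 250.6 CPM. Cd3e was at 1.93 to 13.97 CPM, so the sums say little about the T cell receptor genes. Gzmb and Klrb1, both on that list, had at most 5 and 2 counts in a library. All 7 B cell markers were tested, 6 of them positive with a median over the list of 0.83. Their sum was 183.9 to 279.3 CPM in case and 87.7 to 207.7 CPM in control. Ms4a1 (log2 fold change 0.93, SE 0.36) and Cd22 (1.15, SE 0.26) lay apart with case higher. Groups lay apart in that direction in 2 of the 7, against 4.05% of all tested genes. Of 4 plasma cell genes 2 were negative and 2 positive, and Sdc1, one of them, lay apart with case lower (log2 fold change -0.62, SE 0.19). None of the markers of the T and NK or B cell list was at 0 in all libraries. The part of these cells in the receptor differences was not tested. Without case 6 the median of the 7 receptors was 0.51, and without case 5 it was 1.24, with 7 of 7 positive in both.

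**Figure D3:**
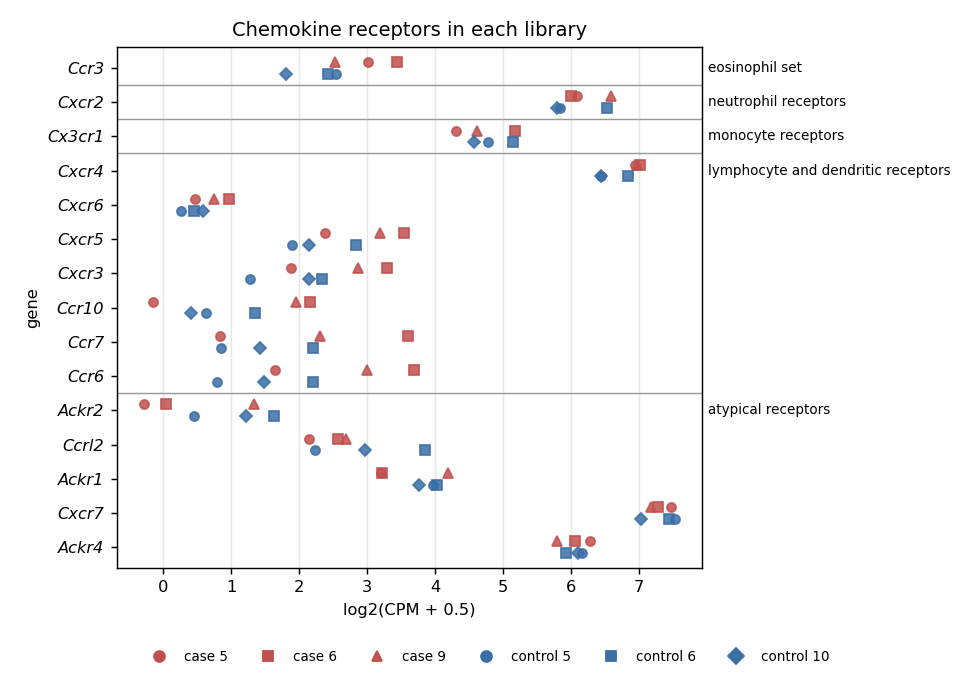
Level of 15 of the 16 tested receptors in each library, as log2(CPM + 0.5) on the horizontal axis; each point is 1 library, with case libraries in red above control libraries in blue. For Cxcr4 every case point lies right of every control point, and case 6 is the highest library for Ccr6, Ccr7, Cxcr5 and Cxcr3.

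Ligands of lymphocytes did not share 1 direction, with 5 of 7 tested members negative and a median of -0.73. Ccl5, made by T cells, NK cells and macrophages, was at 6.47, 21.7 and 17.6 CPM in case 5, 6 and 9, against 4.99, 7.87 and 5.39 CPM in control 5, 6 and 10. Case 6 and case 9 lay above all control libraries, while case 5 lay below control 6 (log2 fold change 1.32, SE 0.45). Cxcl13, which draws B cells through Cxcr5, was at 8.55, 19.2 and 17.3 CPM in case 5, 6 and 9, against 18.7, 41.5 and 32.3 CPM in control 5, 6 and 10. Only case 6 reached above control 5, and the log2 fold change was -1.04 (SE 0.38). Thus Cxcl13 lay lower in case while the values of its receptor Cxcr5 lay higher, although neither passed the test. Cxcl16, the ligand of Cxcr6, was at 26.9, 37.2 and 36.7 CPM in case 5, 6 and 9, against 35.4, 62.4 and 46.7 CPM in control 5, 6 and 10 (log2 fold change -0.52, SE 0.24).

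Ccl19 and Ccl21, the 2 ligands of Ccr7, were highest in control 6, and Ccl21 was also high in control 10. Ccl21 had 19, 26 and 67 counts in case 5, 6 and 9, against 4, 1298 and 247 in control 5, 6 and 10. Ccl19 had 6, 9 and 50 counts in case 5, 6 and 9, against 1, 751 and 19 in control 5, 6 and 10. In both genes control 5 was the lowest library and control 6 the highest. Ccl27, their neighbour and a ligand of Ccr10, had 5 to 12 counts in case and 4 to 21 in control (log2 fold change -0.73, SE 0.67). The log2 fold change of Ccl21 was -3.83 (SE 1.45), and -1.94 without control 6. That of Ccl19 was -3.55 (SE 1.79), and turned to 0.96 without control 6.

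Of the lymph node genes looked up, 1 was far higher in control 6 than elsewhere. Glycam1, a mucin-like ligand of L-selectin made by the high venules of lymph nodes, had 0, 0 and 12 counts in case 5, 6 and 9, against 2, 3733 and 16 in control 5, 6 and 10. It was looked up after the values of Ccl19 and Ccl21 had been seen, in a short list of lymph node vessel and stroma genes of which 5 were in the table. Madcam1, Ltb and Cr2, the other 3 tested genes of that list, were highest in a case library. Their log2 fold changes were positive, at 1.51, 0.73 and 0.78. Among the control libraries, Ltb was highest in control 6, at 7.40 CPM, against 0.525 and 1.28 CPM in control 5 and 10. Of the control libraries, control 5 was highest in Madcam1 and Cr2. Chst4, not tested, had 9 counts in control 6 and at most 2 elsewhere. The list's sum of 307 CPM in control 6 holds 293.8 CPM of Glycam1 alone. Lymphatic endothelium genes, added in the same way, summed to 127.4 to 182.1 CPM in case and 181.1 to 223.5 CPM in control, with 2 of 5 tested genes negative. Of that list Pdpn, a gene of osteocytes too, was at 96.8, 63.2 and 67.5 CPM in case 5, 6 and 9, against 120.4, 157.5 and 111.6 CPM in control 5, 6 and 10, while Flt4, Lyve1 and Mmrn1 had positive fold changes. Ccr7 in control 6 lay below case 6 and case 9 but above the other control libraries. The B cell markers of control 6 summed to 186.5 CPM, between those of the other control libraries. T and NK cell markers of control 6 summed to 432.5 CPM, of which Cd4 and Nkg7 held 204.6 and 152.9 CPM. The sum was above control 5 and 10 (321.9 and 347.4 CPM) and below case 6 and 9 (547.7 and 541.7 CPM). The part of lymphoid tissue in Ccl19 and Ccl21 was not tested. Ccl21 and Ccl27 have close copies in rodent genomes, and the sources used here do not say how reads of such copies were counted.

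The ligands of Cxcr3 were high in another library, case 9. Cxcl9, Cxcl10 and Cxcl11 are neighbours in the genome, are induced by interferon gamma and draw activated T cells. Cxcl10 was at 1.84, 1.86 and 24.6 CPM in case 5, 6 and 9, against 0.788, 8.66 and 7.22 CPM in control 5, 6 and 10. Cxcl9 had 1, 7 and 76 counts in case 5, 6 and 9, against 1, 11 and 4 in control 5, 6 and 10, and Cxcl11 had 4, 1 and 34 counts in the same case libraries, against 2, 23 and 2 in the same control libraries. The last 2 had too few counts to be tested. Case 9 was the highest library in all 3 genes. The log2 fold change of Cxcl10 was 0.76 (SE 1.15), and turned to -1.58 without case 9. Irf1, a transcription factor induced by interferon, had 64.9, 71.6 and 220.7 CPM in case 5, 6 and 9, against 76.4, 103.8 and 81.9 CPM in control 5, 6 and 10. A list of 12 interferon-stimulated genes, drawn up after these values had been seen, summed to 363, 384.4 and 741 CPM in case 5, 6 and 9, against 398, 511.7 and 370.2 CPM in control 5, 6 and 10. Its 12 fold changes were 7 negative and 5 positive. Case 9 was highest in Tap1, Gbp2, Psmb9 and Gbp5, at 217, 150.2, 129.8 and 38.5 CPM, but lowest in Ifit1 and Mx2, at 6.89 and 5.30 CPM. Ifng itself had at most 2 counts in a library, and the part of interferon in case 9 was not tested.

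**Figure D4:**
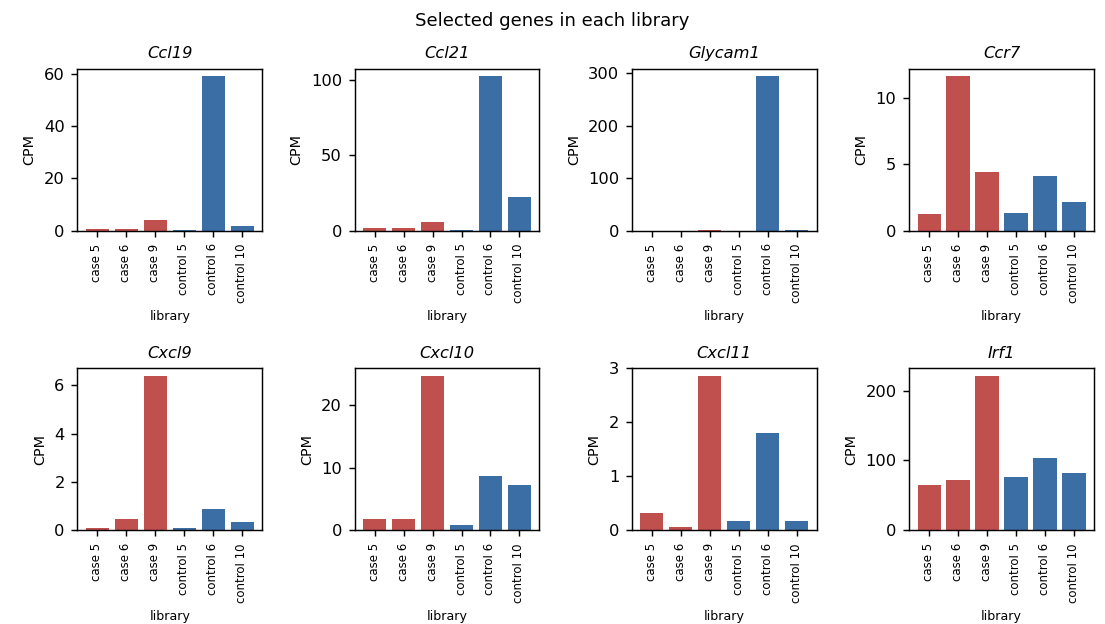
Level (CPM, vertical axis from 0) in each of the 6 libraries, with case libraries in red and control libraries in blue. Ccl19, Ccl21 and Glycam1 are highest in control 6, Ccr7 in case 6, and Cxcl9, Cxcl10, Cxcl11 and Irf1 in case 9.

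In the eosinophil set Ccl11 had a negative fold change and Ccl24 and Ccr3 positive ones. Ccl11, or eotaxin, which draws eosinophils through Ccr3, was at 0.559, 0.865 and 1.51 CPM in case 5, 6 and 9, against 1.14, 5.27 and 4.66 CPM in control 5, 6 and 10. It rested on 7 to 18 counts in case and 13 to 67 in control, and case 9 lay above control 5 (log2 fold change -1.91, SE 0.65). Ccr3 was at 7.59, 10.4 and 5.30 CPM in case 5, 6 and 9, against 5.34, 4.88 and 3.02 CPM in control 5, 6 and 10 (log2 fold change 0.81, SE 0.35). Its groups overlapped only between case 9 and control 5. Ccl24, another ligand of Ccr3, was at 1.20, 2.93 and 1.51 CPM in case 5, 6 and 9, against 0.438, 2.68 and 2.10 CPM in control 5, 6 and 10 (log2 fold change 0.12, SE 0.66). The eosinophil granule genes Epx, Prg2 and Prg3 had positive fold changes and summed to 2151 to 3339 CPM in case, against 1337, 1810 and 59.7 CPM in control 5, 6 and 10. Control 10, lowest in these genes, was also lowest in Ccr3, and their part in its difference was not tested. In RefSeq the span of Ccr3 overlaps that of Ccr1l1, as 18 of the 52 members overlap some other gene, and the sources used here do not say whether strand was used.

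The groups overlapped in all 5 atypical receptors. Ackr4, which clears Ccl19 and Ccl21, was at 77.0, 66.0 and 55.0 CPM in case 5, 6 and 9, against 71.3, 60.6 and 68.5 CPM in control 5, 6 and 10 (log2 fold change -0.017, SE 0.17). Ackr3, listed under its older symbol Cxcr7 and a scavenger of Cxcl12, was at 177.3, 154.8 and 144.8 CPM in case 5, 6 and 9, against 185.1, 174.1 and 130.2 CPM in control 5, 6 and 10 (log2 fold change -0.04, SE 0.18). The groups overlapped in both. Ackr1, which carries chemokines across venules and is also on red cells, was at 8.71, 8.78 and 17.8 CPM in case 5, 6 and 9, against 15.1, 15.8 and 13.1 CPM in control 5, 6 and 10. Only case 9 lay above the control libraries. Ackr2, which clears inflammatory CC chemokines, had 4, 8 and 24 counts in case 5, 6 and 9, against 10, 33 and 20 in control 5, 6 and 10. Ccrl2, which binds the attractant chemerin, had 49, 82 and 71 counts in case 5, 6 and 9, against 48, 178 and 80 in control 5, 6 and 10 (log2 fold change -0.74, SE 0.45). All 5 had negative fold changes, with a median of -0.32, but those of Ackr4 and Ackr3 turned positive with library totals as the scale, at 0.027 and 0.0060.

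Cxcl14 and Cxcl17 belonged to none of these sets. Cxcl14, a chemokine of skin and stroma, was at 138.5, 130.4 and 97.1 CPM in case 5, 6 and 9, against 117.7, 136.8 and 109.6 CPM in control 5, 6 and 10, with a log2 fold change of 0.0072 (SE 0.18). Cxcl17, a mucosal chemokine, had 5, 25 and 13 counts in case 5, 6 and 9, against 0, 11 and 12 in control 5, 6 and 10.

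The 16 untested members were 10 ligands and 6 receptors. Ccl1, Ccl26 and Cxcr1 were at 0 in all 6 libraries. Apart from Cxcl9 and Cxcl11, the ligands Ccl17, Ccl20, Ccl22, Ccl25, Ccl28 and Xcl1 had at most 14 counts in a library. The receptors Ccr4, Ccr8, Ccr9, Ccr1l1 and Xcr1 had at most 27. Xcl1 and its receptor Xcr1, a pair of T cells and cross-presenting dendritic cells, were low throughout. Xcl1 had 1, 14 and 10 counts in case 5, 6 and 9, against 0, 4 and 4 in control 5, 6 and 10. Xcr1 had 2, 15 and 6 counts in case 5, 6 and 9, against 0, 4 and 4 in control 5, 6 and 10.

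Which library was highest also differed between ligands and receptors. Control 6 held the highest value of 12 of the 20 tested ligands and case 6 that of 9 of the 16 tested receptors, while these libraries held it for 13.3% and 14.2% of all tested genes. The lowest value lay in case 5 or control 5 for 9 and 7 of the ligands and for 6 and 5 of the receptors. Over all tested genes these libraries held the lowest value for 18.7% and 20.5%. Between the highest and the lowest library the median ratio was 8.69 for ligands, 3.11 for receptors and 1.77 for all tested genes. Ligands and receptors also had fewer counts, with medians of their mean counts of 71.4 and 83.4 against 231.8 for all tested genes, and the part of counting error in these ratios was not tested.

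**Figure D5:**
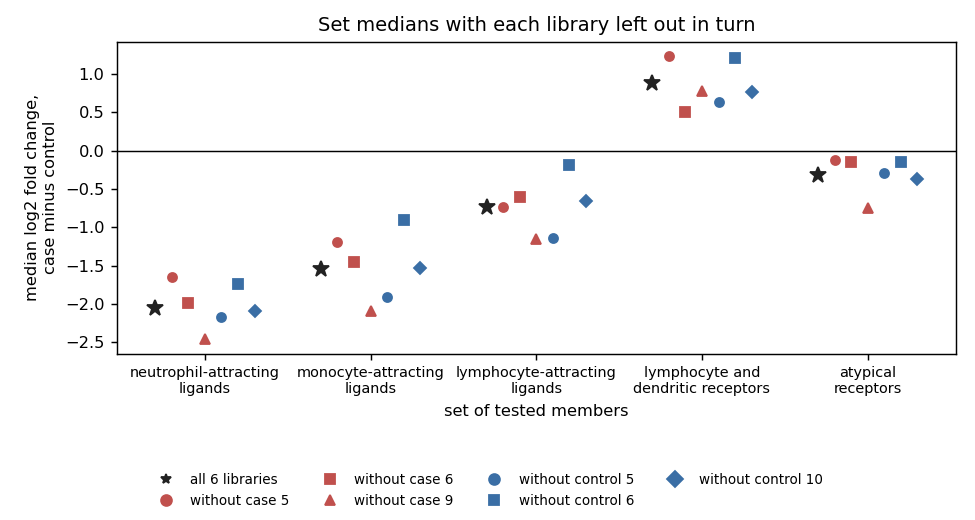
Median log2 fold change (case minus control, vertical axis) of 5 sets of tested members, with all 6 libraries (star) and with each library left out in turn. The medians of the 3 ligand sets stay below 0 and that of the lymphocyte and dendritic receptors above 0, while the lymphocyte-attracting ligands lie at -0.19 without control 6.

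Genes that act below or above the chemokine receptors were taken from 3 lists of other pathway genes. Signal transduction below the receptors had a list of 29 genes. Some carry the signal on, such as the G protein subunit Gnai2 and the Rac activator Dock2. Others damp it, such as the arrestin Arrb2 (log2 fold change 0.23) and the receptor kinase Grk5 (-0.31). Of the 29, 28 had a positive fold change and 1, Grk5, a negative one, where 53.7% of all tested genes were negative. Their median was 0.25, with 0 past the adjusted threshold. Dock2, which leukocytes need to migrate, was at 76.5, 99.7 and 85.2 CPM in case 5, 6 and 9, against 50.8, 69.2 and 48.4 CPM in control 5, 6 and 10, so that the groups lay apart (log2 fold change 0.63, SE 0.19). Most of these genes are expressed in leukocytes of any kind, as are the lymphocyte and macrophage markers above, and their part was not tested. Of 16 genes that induce chemokines or carry the inducing signal, 13 were tested, 5 with a negative fold change and 8 with a positive one, and 0 passed the adjusted threshold.

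Among the inducers, Il1b, Nfkbiz and Il1r1 had negative fold changes and Irf1 a positive one. Il1b was highest in control 6 and case 9, at 15.8, 19.2 and 74.0 CPM in case 5, 6 and 9, against 24.6, 155.1 and 51.6 CPM in control 5, 6 and 10. Nfkbiz, a nuclear partner of NF-kappaB, was at 10.4, 12.8 and 17.5 CPM in case 5, 6 and 9, against 21.5, 20.3 and 26.0 CPM in control 5, 6 and 10. Its groups lay apart, with a log2 fold change of -0.74 (SE 0.24). Il1r1, the signalling receptor of interleukin 1, lay apart as well, at 42.4, 34.8 and 42.1 CPM in case 5, 6 and 9, against 50.5, 45.3 and 87.6 CPM in control 5, 6 and 10. The chemokine ligands outside the symbol pattern, Pf4, Ppbp and Cx3cl1, had log2 fold changes of 0.072, 0.057 and 0.29. Pf4 and Ppbp, made by platelets and their precursors, lie between Cxcl3 and Cxcl6 in the RefSeq table, and their groups overlapped.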

How the data were processed

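RNA extraction used TRIzol, and an Ion Torrent total RNA kit gave single-end reads, per the labels' protocols. The values deposited by the authors are raw counts, in whole numbers, with a row for each gene symbol. For the aligner, counting program, genome build, annotation and strand setting, the sources used here give nothing. Columns were matched to libraries by title, and groups follow the titles.

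Counts were filtered with filterByExpr, scaled with TMM and tested in edgeR 4.0.16 (R 4.3.3) by quasi-likelihood F-tests, with the group alone in the design and Benjamini-Hochberg adjustment over 16066 genes. SEs were derived from the fold change and its F statistic. CPM are counts over the TMM-scaled library size, and a count of 0 allows up to 3 counts. Alternatives included DESeq2 1.42.0 and limma-voom (limma 3.58.1). The test was checked on simulated counts. The members, the sets and the other lists were chosen with earlier results of these data known, and the lists of lymph node, lymphatic and interferon-stimulated genes after member values had been seen. By rule, values in every library are given for the 12 members with the smallest p, the 12 with the highest level and the cognate ligands and receptors of each set, and others by fold change or range. Cxcr7 was matched to Ackr3 through RefSeq synonyms. Protein sequences were not used here, and 1 tested receptor is counted in the totals but not reported here. All 52 members had a RefSeq entry, used for names and neighbours (chained within 250 kb), and 38 had a promoter entry.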

Additional observations from a re-analysis of the deposited data

How the results depend on the processing

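Groups of 3 libraries limit what can be called, and ligand counts were low. Of the 36 tested members, 28 kept the sign of their log2 fold change under all 17 alternatives, 17 negative and 11 positive, and 8 did not. The count of all genes called was 21 with DESeq2, 0 to 2 with each library left out and 0 with the other fits, and 666 genes stood at an unadjusted p under 0.05. Members called were 1 with DESeq2, Cxcl3 (log2 fold change -3.07, DESeq2 adjusted p 0.0279, against edgeR and limma-voom adjusted p of 0.171 to 1 under the other alternatives), and 9 at an unadjusted p under 0.05. Members at an unadjusted p under 0.05 were 3 to 12 with each library left out, 16 without both libraries numbered 5, where 2294 of 16298 genes stood there, and 14 with the number 5 as a covariate, where 1380 of 16066 did.

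Set medians with each library left out ran from -0.64 to 0.0030 for all members, -1.65 to -0.39 for the ligands and -0.75 to -0.12 for the atypical receptors, which were at -0.087 without both libraries numbered 5. With each library left out, log2 fold changes changed sign in Ackr4 (-0.12 to 0.10), Ccl19 (-5.21 to 0.96), Ccl24 (-0.36 to 0.59), Cx3cr1 (-0.39 to 0.10), Cxcl10 (-1.58 to 1.27), Cxcl14 (-0.066 to 0.15), Cxcr2 (-0.054 to 0.47) and Cxcr7 (-0.14 to 0.066). Without both libraries numbered 5 they did in Ccl24 (-0.054), Cx3cr1 (0.081), Cxcl14 (-0.073) and Cxcr7 (0.019). Ackr4 was at 0.0069 with DESeq2 size factors, 0.0071 in DESeq2 and 0.027 with library totals, Cxcr7 at 0.0060 with library totals and Cxcl14 at -0.0039 in limma-voom. The cause of these changes was not tested.

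Numbers 5 and 6 occur in both groups, and nothing in the labels says that they pair libraries. Deviations from the group means, across genes, which are not independent replicates, correlated at 0.40 between case 5 and control 5 and at 0.15 between case 6 and control 6, where case 9 and control 6 reached 0.30. With the number as a replicate block edgeR called 0 genes and 0 members, 13 members stood at an unadjusted p under 0.05, and medians were -2.64 for the neutrophil-attracting ligands and -0.76 for the atypical receptors. Under the replicate block Ackr4 (0.12), Cxcl10 (-0.78) and Cxcr2 (-0.15) changed sign.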
